A study of Mus musculus with 8 samples.

Results

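The acid-base genes described here are the bicarbonate transporter family Slc4, the sodium-proton exchanger family Slc9, the anion exchanger family Slc26 and the subunits of the vacuolar proton pump (V-ATPase). They were taken by symbol: every gene whose platform symbol starts with Slc4a, Slc9a or Slc26a and a digit, or with Atp6v0 or Atp6v1, on a probe set that names this gene alone. Where a gene had several such probe sets, the one with the highest mean over the 8 arrays was used. This gave 51 genes of the 19936 measured, from 55 probe sets: 10 of Slc4, 9 of Slc9, 11 of Slc26, 8 of the membrane sector V0 of the pump and 13 of its cytosolic sector V1. The prefix also takes in Slc9a3r1 and Slc9a3r2, the scaffold proteins NHERF1 and NHERF2 that bind the exchanger NHE3, and Slc4a1ap, which encodes kanadaptin and is no transporter. Atp6v0c, Atp6v1fnb and Slc4a7 had no probe set naming them alone and were not analysed here.

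The kidney reclaims filtered bicarbonate mainly in the proximal tubule, where an apical sodium-proton exchanger (NHE3, Slc9a3) and V-ATPase secrete protons into the lumen and a basolateral sodium bicarbonate cotransporter (NBCe1, Slc4a4) returns bicarbonate to the blood. Final urinary acid is set in the collecting duct by intercalated cells. Type A cells secrete protons through apical V-ATPase and carry bicarbonate out through the basolateral exchanger AE1 (Slc4a1), and type B cells secrete bicarbonate through pendrin (Slc26a4). Intercalated cells use particular V-ATPase isoforms, such as the subunits encoded by Atp6v1b1 and Atp6v0a4, while most cells use other isoforms of the same subunits to acidify lysosomes and endosomes.

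Whole-kidney RNA of female mice on a mixed C57BL/6 - SV127 background was hybridised to 8 Affymetrix arrays. The labels number 4 replicates per group without saying that each is a separate mouse, and the p-values measure the spread between these samples. The 4 arrays labelled mutant came from mice of the genotype Pax8-rtTA;LC-1;Vhl-floxed, a doxycycline-inducible Cre system directed at renal tubule epithelium combined with floxed alleles of Vhl, which encodes the von Hippel-Lindau protein that marks hypoxia-inducible factor (HIF) for degradation. The 4 arrays labelled control came from control littermates, whose alleles the labels do not give. In both groups doxycycline was given in the drinking water (0.2 mg/ml, with 5% sucrose) from an age of 3 weeks and for 2 weeks, followed by 1 week without it, and kidneys were taken at an age of 6 weeks. The values are the authors' deposited log2 values, so a difference of 1 is 2-fold, and every difference below is the mean labelled mutant less the mean labelled control. A gene is said to have risen, fallen or been called where its adjusted p in limma, Benjamini-Hochberg over all 19936 genes, was under 0.05.

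The targeted gene and HIF-induced genes run against the labels. Vhl read 8.34 ± 0.0909 on the arrays labelled mutant and 8.05 ± 0.118 on the arrays labelled control (SD, n = 4 each), and so was not lower where the label says mutant. Egln3, a prolyl hydroxylase gene that HIF induces, read 8.82 ± 0.229 on the arrays labelled mutant and 11.79 ± 0.196 on the arrays labelled control (SD, n = 4 each). Car9, a carbonic anhydrase gene that HIF induces, read 7.18 ± 0.268 on the arrays labelled mutant and 10.06 ± 0.696 on the arrays labelled control (SD, n = 4 each). The Vhl probe set may read a part of the transcript outside the deleted stretch, which the labels do not settle. This possibility is given for the Vhl values alone and was not tested. Whether the labels of the groups were exchanged was not tested. Higher and lower below therefore refer to the labels alone and carry no direction of Vhl loss. The tissue markers were present: Slc34a1, the phosphate cotransporter gene of the proximal tubule, read 13.72 to 13.83 on the arrays labelled mutant and 13.52 to 13.73 on the arrays labelled control.

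Of the 51 acid-base genes, 9 rose and 2 fell on the arrays labelled mutant, and 40 did not pass the test. These 11 are 21.6% of the members, against 7.23% of all genes called in either direction. The median level was 9.81 for the members and 7.99 for all genes. The shares over all genes given here and below are not matched for level. The share that rose was 17.6% of the members, against 2.59% of all genes, and the share that fell was 3.92%, against 4.64% of all genes. The arrays of the 2 labels did not overlap for 16 members (31.4%), 14 of them higher and 2 lower on the arrays labelled mutant, against 14.8% of all genes. The median log2 difference over the members was 0.13, against 0.03 over all genes, and 42 of the 51 differences were positive, as were 11587 of 19936 over all genes. The changes were small: they ran from -0.51 for Slc9a3r2 to 0.65 for Slc9a2, and of the 11 called genes 1, Slc9a2, changed by 1.5-fold or more. Without mutant array 2 the number that rose was 5. With any of arrays 1 to 3 of either label left out, 1 gene fell, since Slc4a4 then did not pass.

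**Figure D1:**
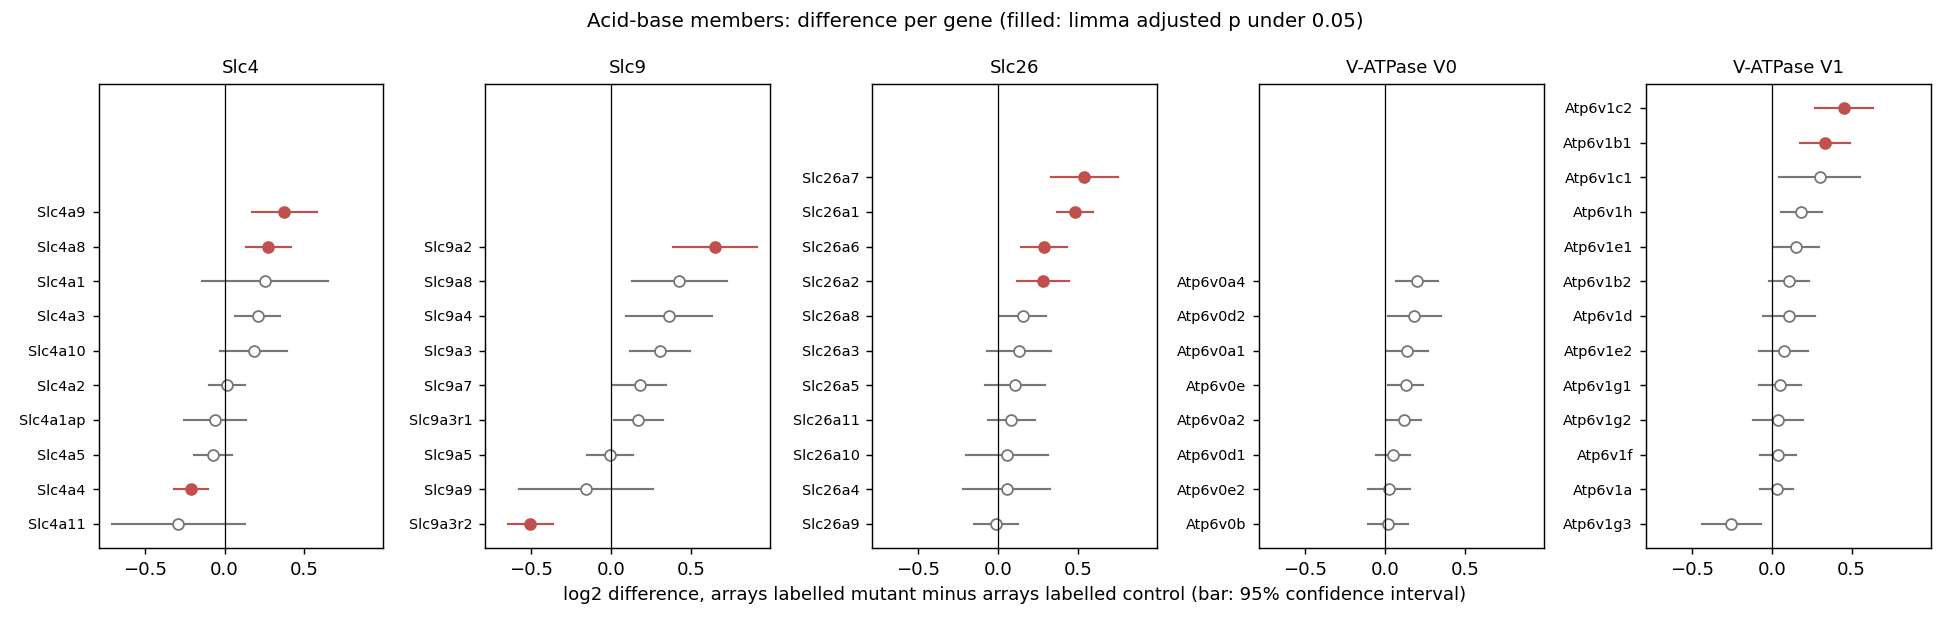
Log2 difference of each of the 51 acid-base genes (horizontal axis, arrays labelled mutant minus arrays labelled control) with its 95% confidence interval from limma, 1 panel per family; filled red points are the 11 called genes. Slc9a2 lies farthest to the right at 0.65 and Slc9a3r2 farthest to the left at -0.51, and every V0 subunit lies right of 0.

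Slc26 was the family with the most called members: 4 of 11 rose on the arrays labelled mutant, 0 fell and 7 did not pass. Over all genes, 2.59% rose and 4.64% fell. The median log2 difference of Slc26 was 0.13. This median was 0.08 without control array 3 and 0.28 in the upper 60% of probe sets by mean, which drops members of low level. Slc26a1, the basolateral sulphate and oxalate exchanger Sat1 of the proximal tubule (probe set 10532241), read 10.28, 10.27, 10.28 and 10.23 on the arrays labelled mutant, and 9.81, 9.71, 9.86 and 9.76 on the arrays labelled control. The 4 arrays labelled mutant lay within 0.05 of each other and all above the arrays labelled control, a difference of 0.48 (95% interval 0.37 to 0.59, 1.39-fold, limma adjusted p = 0.000617). Slc26a7, a chloride-bicarbonate exchanger of the basolateral membrane of type A intercalated cells (probe set 10511631), read 7.78, 7.95, 7.88 and 7.81 on the arrays labelled mutant, and 7.54, 7.43, 7.15 and 7.13 on the arrays labelled control. The groups did not overlap and the arrays labelled control spread more widely (SD 0.0756 for labelled mutant, 0.202 for labelled control). The difference was 0.54 (95% interval 0.33 to 0.75, 1.45-fold, limma adjusted p = 0.00763).

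The other 2 called Slc26 genes changed less. Slc26a6, the apical exchanger of the proximal tubule that trades chloride for oxalate, formate or bicarbonate (probe set 10589166), read 8.02, 7.98, 8.09 and 8.06 on the arrays labelled mutant, and 7.74, 7.79, 7.86 and 7.59 on the arrays labelled control. It rose by 0.29 (1.22-fold, limma adjusted p = 0.0245), without overlap between the groups. Leaving out mutant array 3, mutant array 4, control array 1 or control array 2 ended the call (limma adjusted p = 0.0616, 0.0616, 0.0647 and 0.0520). Slc26a2, a sulphate transporter known from cartilage (probe set 10459183), read 8.95, 9.03, 8.93 and 8.91 on the arrays labelled mutant, and 8.70, 8.48, 8.81 and 8.71 on the arrays labelled control. It rose by 0.28 (1.22-fold, limma adjusted p = 0.0457), also without overlap. Blocking on the replicate number ended its call (limma adjusted p = 0.0794), as did leaving out any 1 array except control array 3 (from 0.0688 to 0.127).

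Pendrin, the apical chloride-bicarbonate exchanger of type B intercalated cells, did not pass. Slc26a4 read 9.77, 10.27, 10.18 and 10.22 on the arrays labelled mutant, and 9.85, 10.30, 10.05 and 10.02 on the arrays labelled control, with wide overlap. The difference was 0.05 with a 95% interval of -0.22 to 0.33. Array 1 was the lowest of each group. Slc26a11 (8.24 ± 0.0975 labelled mutant, 8.16 ± 0.0777 labelled control) and Slc26a10 (8.28 ± 0.171 labelled mutant, 8.23 ± 0.216 labelled control; SD, n = 4 each) did not pass either. The members known from other organs, Slc26a3 of the intestine, Slc26a5 (prestin) of hair cells, Slc26a8 of the testis and Slc26a9 of stomach and airway, had means between 5.24 and 6.46. Slc26a3 and Slc26a5, with the Slc4 member Slc4a10, were the 3 members with means under the lowest of the arrays' lower quartiles (6.21), where array differences can be compressed.

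The stretch before the start of Slc26a1 is shown because this gene had the lowest adjusted p of the members, with capitals for the motifs found. It is the 250 bases upstream of 1 of its 2 annotated starts in RefSeq, at chr5:108674797-108675046 on the minus strand of GRCm38.p6.
Slc26a1: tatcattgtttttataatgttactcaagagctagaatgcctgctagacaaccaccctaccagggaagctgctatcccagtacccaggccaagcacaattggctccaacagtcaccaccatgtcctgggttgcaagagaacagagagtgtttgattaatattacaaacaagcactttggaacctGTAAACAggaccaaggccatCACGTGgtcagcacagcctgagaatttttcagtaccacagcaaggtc
The motifs searched on both strands were CACGTG, the palindromic E-box, ACGTG, the core of the HIF site, which every CACGTG contains, and GTAAACA, a forkhead core. The Slc26a1 stretch holds CACGTG, whose first base is 47 bases before the start, and GTAAACA, whose first base is 67 bases before it, and the stretch before its other start, at chr5:108675366-108675615, holds none. Of the 37 members with such a stretch in RefSeq, 4 hold CACGTG (Atp6v0b, Atp6v1a, Slc26a1 and Slc9a3), against 6.86% of 27025 genes. The same 4 hold ACGTG, against 18.5% of the genes, and 2 hold GTAAACA (Atp6v1b1 and Slc26a1), against 3.54%. These are matches of letters, not sites of binding. Slc26a1 overlaps Idua, the lysosomal iduronidase gene, in the annotation; Idua read 8.79 ± 0.0715 on the arrays labelled mutant and 8.86 ± 0.0736 on the arrays labelled control (SD, n = 4 each) and did not pass (limma adjusted p = 0.501).

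**Figure D2:**
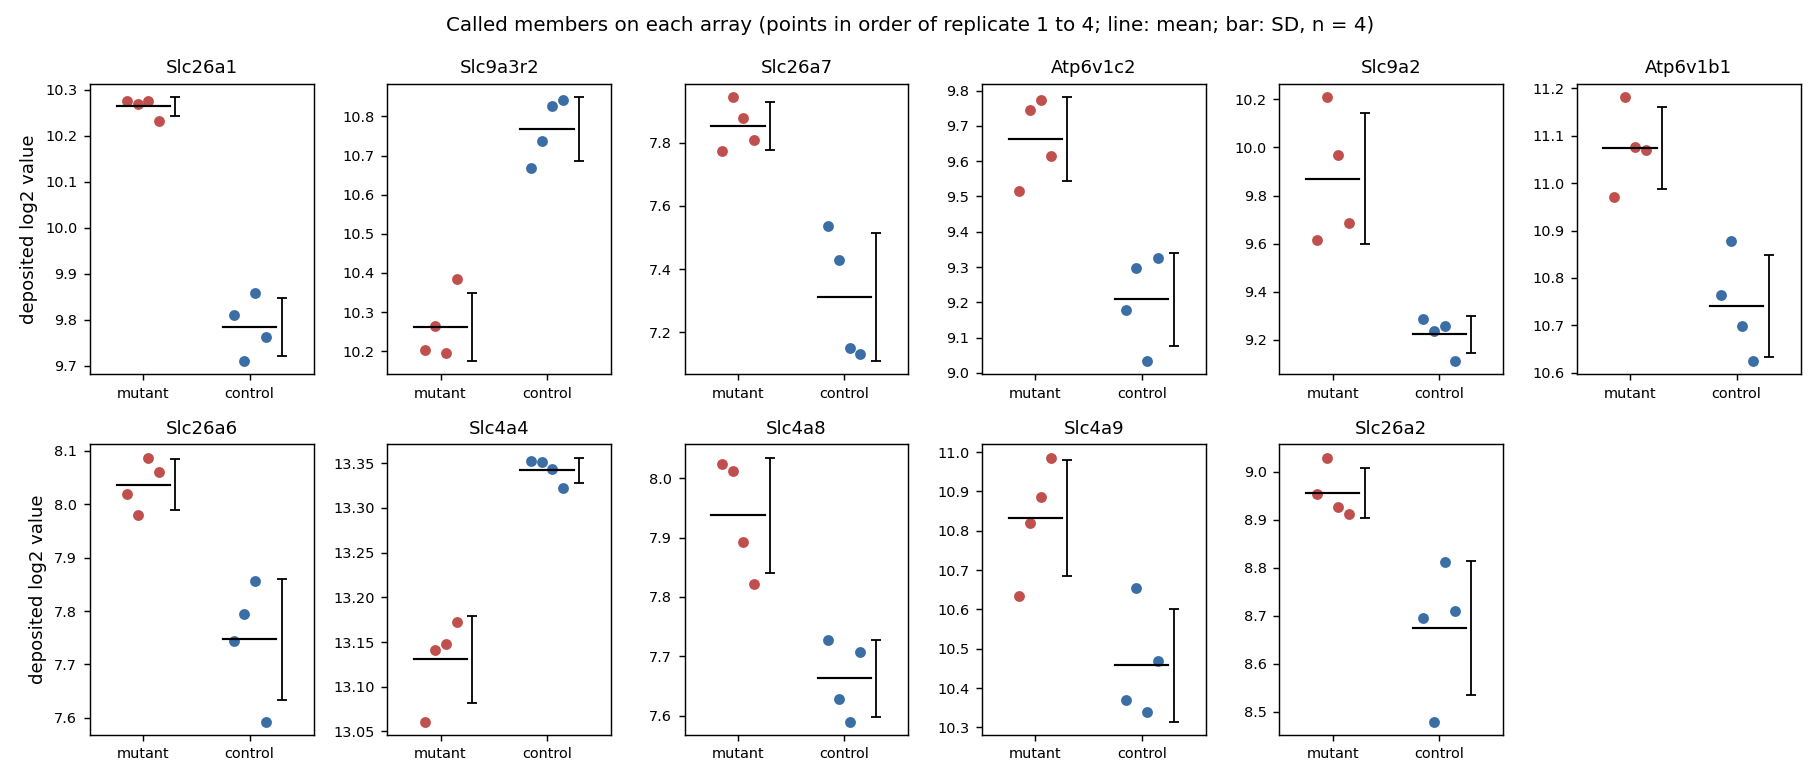
Deposited log2 value of the 11 called acid-base genes on each array (points, replicates 1 to 4 from left to right in each group), with the mean as a line and the SD as a bar (n = 4). In all panels but that of Slc4a9 the points labelled mutant and the points labelled control do not overlap, and Slc9a3r2 and Slc4a4 are the 2 panels in which the points labelled mutant lie below. The vertical axes differ between panels and do not start at 0.

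Among the sodium-proton exchangers, Slc9a2 had the largest change of all members. Slc9a2 encodes NHE2, an apical exchanger of the thick ascending limb and distal tubule (probe set 10345855). It read 9.62, 10.21, 9.97 and 9.69 on the arrays labelled mutant, and 9.28, 9.24, 9.26 and 9.11 on the arrays labelled control. All 4 arrays labelled mutant were above all arrays labelled control, with mutant array 2 the highest, and the difference was 0.65 (95% interval 0.38 to 0.91, 1.57-fold, limma adjusted p = 0.00975).

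NHE3 and 2 further renal exchangers did not pass in the fit without a block. Slc9a3, NHE3 of the proximal brush border, read 11.44, 11.60, 11.55 and 11.68 on the arrays labelled mutant, and 11.24, 11.20, 11.12 and 11.48 on the arrays labelled control. Its difference was 0.30 (95% interval 0.12 to 0.49, limma adjusted p = 0.0609), and the groups overlapped through control array 4, the highest of its group, and mutant array 1, the lowest of its own. Slc9a8, NHE8 of proximal apical membrane and Golgi, read 11.71, 11.84, 11.63 and 11.26 on the arrays labelled mutant, and 11.42, 11.27, 11.11 and 10.94 on the arrays labelled control. Array 4 was the lowest of each group, and the difference was 0.43 (limma adjusted p = 0.0939). Slc9a4, NHE4 of the basolateral thick ascending limb, read 7.99, 8.34, 8.28 and 8.48 on the arrays labelled mutant, and 7.64, 7.95, 8.14 and 7.90 on the arrays labelled control, a difference of 0.36 (limma adjusted p = 0.115). In both groups array 1 was the lowest for Slc9a4. With the replicate number as a block these 3 genes passed: the limma adjusted p was 0.0334 for Slc9a3, 0.0137 for Slc9a8 and 0.0349 for Slc9a4. The labels do not say what the shared numbers mean, so that this pairing rests on the correlation of the arrays.

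The remaining exchangers of intracellular membranes and brain did not pass. Slc9a7 of the trans-Golgi read 7.76 ± 0.140 on the arrays labelled mutant and 7.58 ± 0.0707 on the arrays labelled control (SD, n = 4 each). Slc9a9 of recycling endosomes read 7.80, 7.39, 7.14 and 7.03 on the arrays labelled mutant, and 7.66, 7.82, 7.44 and 7.08 on the arrays labelled control, a spread within each group far above the difference of -0.16. The mean of 6 macrophage markers was 8.34, 8.28, 7.99 and 7.93 on the arrays labelled mutant, and 8.24, 8.34, 8.36 and 8.09 on the arrays labelled control, the same order of arrays as Slc9a9 where the label says mutant. A part of macrophages in the Slc9a9 values was not tested. Slc9a5, known from brain, read 6.69 ± 0.0747 on the arrays labelled mutant and 6.70 ± 0.0953 on the arrays labelled control (SD, n = 4 each).

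Of the NHERF scaffolds, which anchor NHE3 and other transporters through PDZ domains, 1 fell and 1 did not pass. Slc9a3r2, NHERF2 (probe set 10448676), read 10.20, 10.26, 10.20 and 10.38 on the arrays labelled mutant, and 10.67, 10.74, 10.83 and 10.84 on the arrays labelled control. It fell without overlap, by a log2 difference of -0.51 (95% interval -0.65 to -0.36, 1.42-fold lower, limma adjusted p = 0.00160). Slc9a3r1, NHERF1 of the proximal brush border, read 11.15, 10.99, 11.09 and 10.95 on the arrays labelled mutant, and 11.02, 10.87, 10.78 and 10.84 on the arrays labelled control, a difference of 0.17 (limma adjusted p = 0.191). The within-array difference of Slc9a3r2 minus Slc9a3r1 was -0.78 ± 0.174 on the arrays labelled mutant and -0.11 ± 0.177 on the arrays labelled control (SD, n = 4 each). The groups did not overlap (p = 0.0286 by an exact two-sided permutation test, its minimum with 4 arrays a group, and 0.0857 adjusted over the 6 paralogue pairs compared). As Slc9a3r2 was already called and the pairs were chosen after their values were seen, this p adds no separate support. All 7 endothelial markers fell together with Slc9a3r2, against 4.64% of all genes. Their mean was 10.28 ± 0.0475 on the arrays labelled mutant and 10.98 ± 0.119 on the arrays labelled control (SD, n = 4 each). The VEGF receptor gene Kdr and the cadherin gene Cdh5 had the largest differences among them, -0.90 and -0.84. Their part in the Slc9a3r2 difference was not tested. In whole-kidney RNA, fewer cells of a type and less RNA per cell cannot be told apart.

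In the Slc4 family 2 of 10 genes rose, 1 fell and 7 did not pass on the arrays labelled mutant. Over all genes, 2.59% rose and 4.64% fell. The median log2 difference of Slc4 was 0.10, or 0.01 in the upper 60% of probe sets. Slc4a4, the proximal cotransporter NBCe1 (probe set 10523021), read 13.06, 13.14, 13.15 and 13.17 on the arrays labelled mutant, and 13.35, 13.35, 13.34 and 13.32 on the arrays labelled control. The arrays labelled control lay within 0.03 of each other and all above the arrays labelled mutant, and the log2 difference was -0.21 (95% interval -0.32 to -0.11, 1.16-fold lower, limma adjusted p = 0.0255). Its values are near the top of the scale, which ended at 14.66. After quantile normalization the difference was -0.13 and did not pass (limma adjusted p = 0.135). Leaving out any of arrays 1 to 3 of either label also ended the call (limma adjusted p between 0.0501 and 0.0724). While 2.59% of all genes rose, of the 10 proximal tubule markers 2 rose, 0 fell and 8 did not pass. Those that rose were the water channel gene Aqp1 and the anion transporter gene Slc22a8, by 0.29 and 0.30. The differences were positive for 8 of the 10 and negative for Lrp2 (-0.06) and Slc27a2 (-0.07). The largest, 0.55 for Slc22a6, did not pass, with an SD of 0.800 labelled mutant and 0.699 labelled control. The mean of the 10 was 12.77 ± 0.0841 on the arrays labelled mutant and 12.55 ± 0.118 on the arrays labelled control (SD, n = 4 each).

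The 2 Slc4 genes that rose are known from type B intercalated cells. Slc4a8, the sodium-driven chloride-bicarbonate exchanger NDCBE (probe set 10426924), read 8.02, 8.01, 7.89 and 7.82 on the arrays labelled mutant, and 7.73, 7.63, 7.59 and 7.71 on the arrays labelled control. The groups did not overlap and the difference was 0.27 (1.21-fold, limma adjusted p = 0.0279). Leaving out mutant array 1, mutant array 2, control array 2 or control array 3 ended the call (limma adjusted p = 0.0636, 0.0852, 0.0828 and 0.0870). Slc4a9, the basolateral transporter AE4 (probe set 10454885), read 10.63, 10.82, 10.89 and 10.99 on the arrays labelled mutant, and 10.37, 10.65, 10.34 and 10.47 on the arrays labelled control. The groups overlapped between mutant array 1 and control array 2, the difference was 0.37 (1.30-fold, limma adjusted p = 0.0361), and the call ended when any 1 array except mutant array 1 and control array 2 was left out (from 0.0659 to 0.109).

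Slc4a1, AE1 of type A intercalated cells and red cells, read 9.80, 10.06, 9.89 and 10.01 on the arrays labelled mutant, and 9.77, 10.25, 9.39 and 9.34 on the arrays labelled control. The arrays labelled control spread over a wider range, the groups overlapped and the difference of 0.25 did not pass (95% interval -0.14 to 0.65, limma adjusted p = 0.434). Of the 7 erythroid markers measured of 10 listed, 1 fell, against 4.64% of all genes, and 6 did not pass. The mean of the 7 was 6.99 to 7.27 on the arrays labelled mutant and 7.38 to 7.74 on the arrays labelled control. Alas2, the erythroid enzyme of haem synthesis, read 8.09 to 9.18 on the arrays labelled mutant and 10.39 to 11.27 on the arrays labelled control, while Epb42, a protein of the red cell membrane, read 6.57 to 6.65 on the arrays labelled mutant and 6.68 to 7.15 on the arrays labelled control. Without Alas2 the mean of the other 6 erythroid markers was 6.81 to 6.95 on the arrays labelled mutant and 6.88 to 7.15 on the arrays labelled control, with overlap. Control array 2 was the highest of its group for Slc4a1, Alas2 and Epb42, and for the mean of the intercalated cell markers given below (9.52). Among the arrays labelled control, the erythroid marker Hemgn was highest on array 4. Its difference of 0.17 was the 1 positive difference of the 7 and did not pass, nor did Epb42 (limma adjusted p = 0.238 and 0.110). A part of red cell precursors or of intercalated cells in the Slc4a1 values was not tested.

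The widely expressed basolateral exchanger AE2 differed little. Slc4a2 read 9.50 ± 0.0469 on the arrays labelled mutant and 9.48 ± 0.0450 on the arrays labelled control (SD, n = 4 each), and the 95% interval of its difference was -0.10 to 0.13. Slc4a3, AE3 of heart and brain, read 8.80, 8.71, 8.59 and 8.68 on the arrays labelled mutant, and 8.51, 8.58, 8.44 and 8.42 on the arrays labelled control. Its groups did not overlap, but the difference of 0.21 did not pass (limma adjusted p = 0.0823). Its other probe set gave nearly the same difference, 0.21. Slc4a11, a membrane transporter of corneal endothelium and kidney, spread widely in both groups: it read 9.55, 8.94, 9.07 and 9.06 on the arrays labelled mutant, and 9.36, 9.91, 9.52 and 8.99 on the arrays labelled control, a difference of -0.29 (limma adjusted p = 0.401). The cotransporters Slc4a5 and Slc4a10 and kanadaptin (Slc4a1ap) had differences of -0.07, 0.18 and -0.06 and did not pass.

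Of the 21 measured subunit genes of the proton pump 2 were called, near the 7.23% of all genes called in either direction. Both are of the cytosolic sector and were higher on the arrays labelled mutant, while 2.59% of all genes rose. Atp6v1c2, an isoform of the stalk subunit C found in kidney and lung (probe set 10399559), read 9.52, 9.75, 9.77 and 9.62 on the arrays labelled mutant, and 9.18, 9.30, 9.03 and 9.32 on the arrays labelled control. All 4 arrays labelled mutant were above the others, with a difference of 0.45 (95% interval 0.27 to 0.64, 1.37-fold, limma adjusted p = 0.00896). Atp6v1b1, the nucleotide-binding subunit B isoform of intercalated cells, whose loss causes distal renal tubular acidosis with deafness in people (probe set 10539449), read 10.97, 11.18, 11.08 and 11.07 on the arrays labelled mutant, and 10.76, 10.88, 10.70 and 10.62 on the arrays labelled control. Its groups did not overlap and the difference was 0.33 (95% interval 0.18 to 0.49, 1.26-fold, limma adjusted p = 0.0176). Leaving out mutant array 2 or control array 3 ended the call (limma adjusted p = 0.0542 and 0.0566). Atp6v1c2 overlaps Pdia6 in the annotation, a gene of a disulfide isomerase, which read 10.07 ± 0.170 on the arrays labelled mutant and 10.35 ± 0.135 on the arrays labelled control (SD, n = 4 each) and did not pass (limma adjusted p = 0.118).

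The stretches before the start of these 2 pump genes are shown because they are the called subunits. Each is the 250 bases upstream of the start in RefSeq on GRCm38.p6, at chr6:83742767-83743016 on the plus strand for Atp6v1b1 and at chr12:17324731-17324980 on the minus strand for Atp6v1c2. Capitals mark the motif found.
Atp6v1b1: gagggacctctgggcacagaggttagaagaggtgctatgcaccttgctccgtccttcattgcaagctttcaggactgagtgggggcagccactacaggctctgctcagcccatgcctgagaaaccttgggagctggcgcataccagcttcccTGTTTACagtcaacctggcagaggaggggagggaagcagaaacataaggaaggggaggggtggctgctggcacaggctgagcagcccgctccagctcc
Atp6v1c2: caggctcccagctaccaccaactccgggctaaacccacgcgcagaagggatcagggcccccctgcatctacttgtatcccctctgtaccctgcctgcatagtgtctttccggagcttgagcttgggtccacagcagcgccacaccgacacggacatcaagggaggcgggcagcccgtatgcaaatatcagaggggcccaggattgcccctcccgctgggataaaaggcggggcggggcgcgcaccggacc
The Atp6v1b1 stretch holds GTAAACA on the opposite strand, with the match beginning 98 bases before the start, and none of the other motifs searched. The Atp6v1c2 stretch holds none of the 3 motifs. Foxi1, the forkhead factor of intercalated cells that is known to drive Atp6v1b1 in mice, read 9.96 on average on the arrays labelled mutant and 9.93 on the arrays labelled control, and did not pass (limma adjusted p = 0.891).

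Of the isoforms known from intercalated cells, Atp6v1b1, Atp6v1c2, Atp6v0a4, Atp6v0d2 and Atp6v1g3, 2 rose and 3 did not pass, while 2.59% of all genes rose. The differences were positive for 4 of the 5, and the median log2 difference was 0.20. Atp6v0a4, the proton channel subunit a4, also a gene of distal renal tubular acidosis in people, read 11.69, 11.79, 11.76 and 11.90 on the arrays labelled mutant, and 11.59, 11.56, 11.54 and 11.66 on the arrays labelled control. Its groups did not overlap and the difference was 0.20 (limma adjusted p = 0.0752). Its adjusted p was under 0.05 in 4 alternatives: quantile normalization, the upper 60% of probe sets, a trended robust variance and array weights (0.0255, 0.0466, 0.0360 and 0.0408). Atp6v0d2, the subunit d2, read 10.54, 10.75, 10.76 and 10.85 on the arrays labelled mutant, and 10.44, 10.61, 10.59 and 10.52 on the arrays labelled control, a difference of 0.19 (limma adjusted p = 0.181). Atp6v1g3, the stalk subunit G3, was the pump gene whose difference was negative. It read at most 10.02 on mutant arrays 1 to 3 and 10.14 on mutant array 4, and 10.17, 10.45, 10.43 and 10.13 on the arrays labelled control. The means were 10.04 labelled mutant and 10.30 labelled control, a difference of -0.25 (95% interval -0.44 to -0.07, limma adjusted p = 0.104), with overlap between mutant array 4 and control array 4.

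Of the subunits used by most cells none passed by limma. Of 13 measured of 14 listed, 0 rose and 0 fell, 6 (46.2%) had an unadjusted limma p under 0.05, against 21.8% of all genes, and their median log2 difference was 0.11. The catalytic subunit A, Atp6v1a, read 12.56 ± 0.0330 on the arrays labelled mutant and 12.53 ± 0.0186 on the arrays labelled control (SD, n = 4 each), with a 95% interval of the difference from -0.07 to 0.13. Atp6v1h, the regulatory subunit H, read 10.23, 10.30, 10.39 and 10.39 on the arrays labelled mutant, and 10.08, 10.18, 10.20 and 10.10 on the arrays labelled control. Its groups did not overlap, and the difference of 0.19 did not pass (limma adjusted p = 0.0853). Atp6v1c1, the common subunit C1, read 10.47, 10.77, 10.64 and 10.34 on the arrays labelled mutant, and 10.10, 10.12, 10.28 and 10.52 on the arrays labelled control, a difference of 0.30 that did not pass (limma adjusted p = 0.163). Control array 4 was above mutant arrays 1 and 4 there.

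All 8 genes of the V0 sector had positive differences, from 0.02 to 0.20, and none passed by limma, while 5 (62.5%) had an unadjusted p under 0.05, against 21.8% of all genes. The groups did not overlap for Atp6v0a4, Atp6v0a1, Atp6v0a2 and Atp6v0e, nor did they for 14.8% of all genes. The subunit a1 gene Atp6v0a1 read 10.63 ± 0.0774 on the arrays labelled mutant and 10.49 ± 0.0544 on the arrays labelled control, and the a2 gene Atp6v0a2 read 10.79 ± 0.0479 labelled mutant and 10.67 ± 0.0288 labelled control (SD, n = 4 each). The small subunit gene Atp6v0e read 11.82 ± 0.0363 on the arrays labelled mutant and 11.69 ± 0.0434 on the arrays labelled control (SD, n = 4 each). Their differences were 0.14, 0.12 and 0.13, with limma adjusted p of 0.188, 0.196 and 0.155. Atp6v0d1, Atp6v0e2 and the proteolipid gene Atp6v0b had differences of 0.05, 0.03 and 0.02. In V1 the other genes, Atp6v1b2, Atp6v1d, Atp6v1e1, Atp6v1e2, Atp6v1f, Atp6v1g1 and Atp6v1g2, had differences from 0.04 to 0.15 and did not pass.

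Within an array, the intercalated isoform was set against the common isoform of the same subunit to ask whether their differences were unequal. For subunit G, Atp6v1g3 minus Atp6v1g1 was -0.38, -0.47, -0.38 and -0.29 on the arrays labelled mutant, and -0.15, 0.03, -0.04 and -0.14 on the arrays labelled control. The groups did not overlap and differed by -0.30 (exact two-sided permutation p = 0.0286, 0.0857 adjusted over the 6 pairs). For subunit B, Atp6v1b1 minus Atp6v1b2 was -0.99, -0.87, -1.09 and -1.03 on the arrays labelled mutant, and -1.20, -1.08, -1.29 and -1.30 on the arrays labelled control, a difference of 0.22 (exact permutation p = 0.0571, 0.114 adjusted). Mutant array 3 lay just below control array 2. The pairs of subunits d, C and a differed by 0.13, 0.15 and 0.06 (exact permutation p = 0.0857, 0.286 and 0.457). No pair passed after adjustment over the 6 pairs. The pairs were chosen after their values were seen, which the adjustment does not cover. Taken within same-numbered arrays, mutant minus control for subunit B was 0.21, 0.21, 0.21 and 0.27, and for subunit d it was 0.05, 0.09, 0.16 and 0.24, positive in 4 of 4 for each. The pairs of subunit G and of the NHERF scaffolds were negative in 4 of 4, and those of subunits C and a had both signs. With 4 such pairs an exact two-sided sign-flip test cannot go below p = 0.125, which subunits B, d and G and the scaffolds reached.

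**Figure D3:**
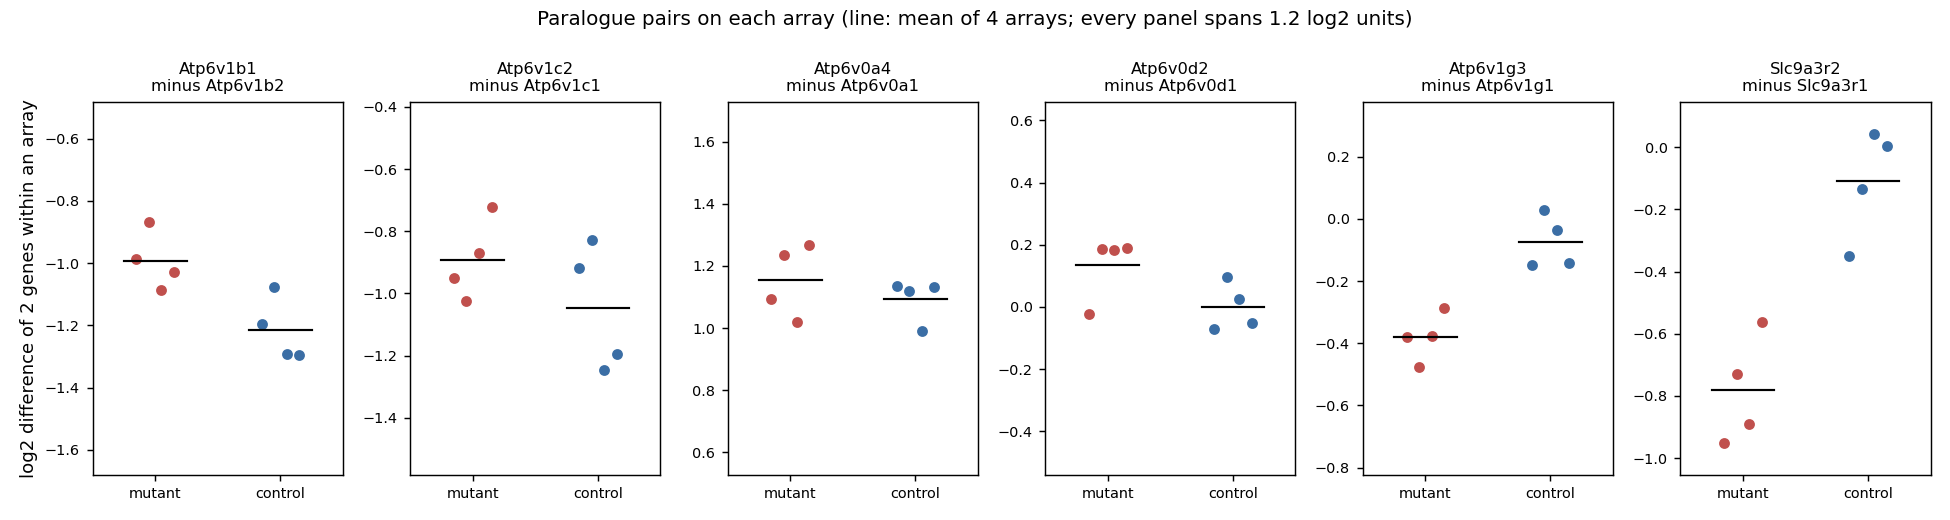
Within-array log2 difference between 2 paralogues (vertical axis, first named minus second) on each array, labelled mutant left and labelled control right, with the mean of the 4 arrays as a line. The groups do not overlap for Atp6v1g3 minus Atp6v1g1 and for Slc9a3r2 minus Slc9a3r1, where the points labelled mutant are lower.

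Genes that work with these transporters were read from lists outside the symbol rule. Of 17 measured further acid-base genes, 4 rose and 2 fell, while 2.59% of all genes rose and 4.64% fell. Rhbg, an ammonia transporter of the collecting duct, read 10.62 ± 0.102 on the arrays labelled mutant and 9.94 ± 0.189 on the arrays labelled control (SD, n = 4 each), a log2 difference of 0.68. Atp12a, the non-gastric proton-potassium pump, read 6.48 ± 0.130 on the arrays labelled mutant and 7.03 ± 0.253 on the arrays labelled control (SD, n = 4 each), 1.47-fold lower. The others that rose were Bsnd, Rhcg and Clcn5, which encode a chloride channel subunit, an ammonia transporter and an endosomal chloride-proton exchanger, and Car2, cytosolic carbonic anhydrase 2, fell. Their limma adjusted p ran from 0.00186 for Bsnd to 0.0494 for Car2. Of 12 accessory and assembly genes of the pump 1 fell and 0 rose, near the 7.23% of all genes called in either direction. Ccdc115, a V-ATPase assembly factor, read 7.77 ± 0.156 on the arrays labelled mutant and 8.18 ± 0.107 on the arrays labelled control (SD, n = 4 each; limma adjusted p = 0.0179). The accessory subunit genes Atp6ap1 and Atp6ap2 and Tcirg1, which encodes the a3 subunit, had differences of -0.06, 0.07 and -0.09 and did not pass.

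Marker genes of the cells that carry these transporters were read beside them. For the counts that follow, 2.59% of all genes rose and 4.64% fell. Of 12 intercalated cell markers outside the families, Bsnd and Rhcg rose, which the preceding list also holds. Of the 12, 0 fell and 10 did not pass, and their median log2 difference was 0.09. The differences were positive for 10 of the 12, among them Foxi1 (0.03) and Kit (0.01), and negative for Hepacam2 (-0.13) and Aqp6 (-0.15). The mean of these markers was 9.45, 9.59, 9.53 and 9.62 on the arrays labelled mutant, and 9.39, 9.52, 9.38 and 9.38 on the arrays labelled control, with control array 2 above mutant array 1. Of 7 thick ascending limb markers 3 rose and 0 fell, led by the tight junction genes Cldn19 and Cldn16 with differences of 0.65 and 0.51. Of 5 distal convoluted tubule markers 3 rose and 0 fell, led by the magnesium channel gene Trpm6 and the calcium-binding protein gene Calb1 with 0.71 and 0.54. The mean of the distal convoluted tubule markers was 11.02, 11.27, 10.92 and 10.94 on the arrays labelled mutant, and 10.51, 10.81, 10.60 and 10.63 on the arrays labelled control. Mutant array 2 was the highest array for this mean and for Slc9a2, but the other arrays labelled mutant differed in order. On mutant array 3 this mean was the lowest of its group, while Slc9a2 was above mutant arrays 1 and 4. Of 8 principal cell markers 2 rose and 0 fell. Those that rose were the water channel gene Aqp3, by 0.45, and the steroid dehydrogenase gene Hsd11b2, by 0.31. The differences were positive for 6 of the 8 and negative for Aqp2 (-0.04) and Avpr2 (-0.13). The mean of the 8 was 10.22 to 10.43 on the arrays labelled mutant and 10.10 to 10.26 on the arrays labelled control. Of 6 macrophage markers and 6 male germ cell markers none passed by limma, with 1 of each at an unadjusted p under 0.05, against 21.8% of all genes. The part of these cell types in the members' differences was not tested.

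**Figure D4:**
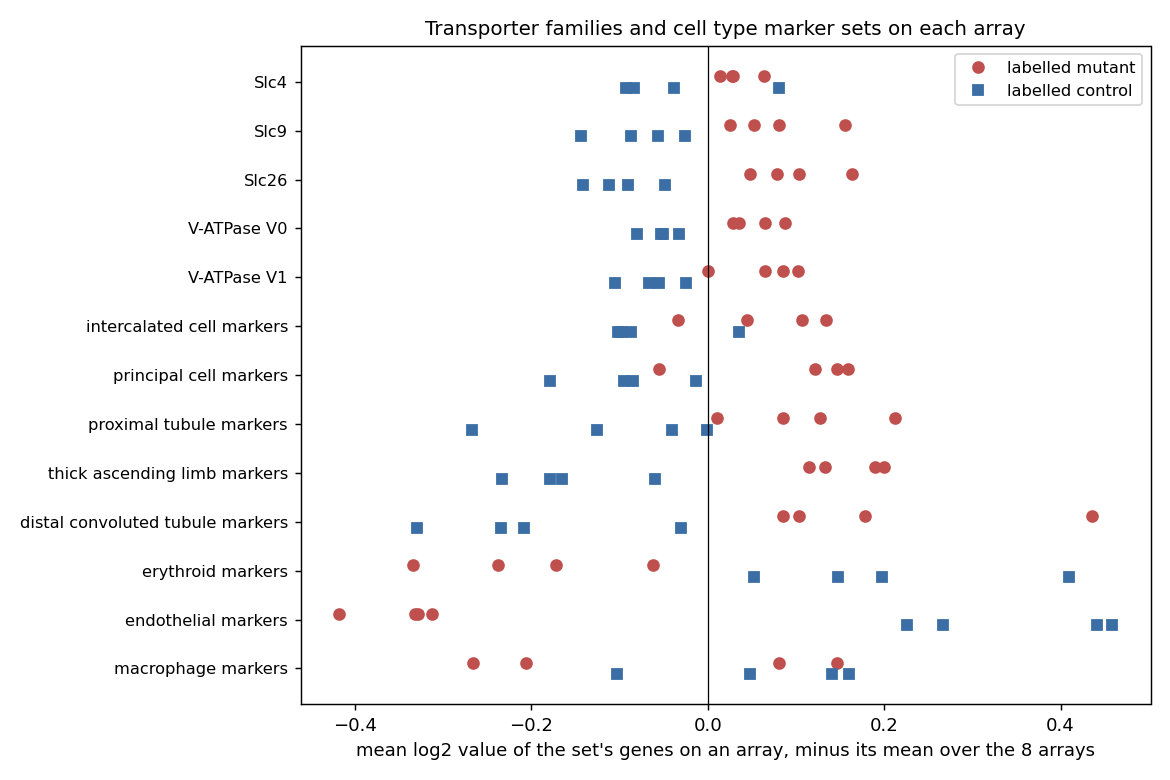
Mean log2 value of the genes of each family and marker set on each array, minus the mean of that set over the 8 arrays (horizontal axis, log2 units); red circles are arrays labelled mutant and blue squares arrays labelled control. The families Slc9, Slc26, V0 and V1 lie higher on all arrays labelled mutant, as do the proximal, thick ascending limb and distal convoluted tubule markers, while the endothelial markers lie lower, as do the erythroid markers, which overlap without Alas2; the Slc4 family, the intercalated, principal cell and macrophage markers overlap.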

How the data were processed

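Biotin-labelled whole-kidney RNA was measured on 8 Affymetrix arrays, per the labels' protocols. The authors deposited log2 values of 35556 probe sets, from 1.92 to 14.66, with array medians of 7.55 to 7.58. The submitters' processing notes name limma. Background correction, normalization and genome build are not given in the sources used here. Depth has no meaning for arrays, and their number limits the precision. The standard errors of the log2 differences had a median of 0.0718 over all genes.

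Names came from the platform annotation, with current symbols from RefSeq (GRCm38.p6) for 21701 of the 21789 probe sets that name 1 gene. The highest-mean probe set per gene left 19936 genes, unfiltered. The label was the factor of a linear model in limma 3.58.1 under R 4.3.3, with moderated two-sided tests by eBayes, and p was adjusted by Benjamini-Hochberg over all genes. Within-array differences of paralogues were tested by exact permutation of the arrays. By rule, each called member is named with its 8 values, as are the member of largest difference in a family with none called and the 2 called genes of largest change in each other list. Further members and the paralogue pairs were chosen after their values were seen. Members and lists were chosen with earlier results of these data known. Same-numbered arrays deviated together from their group means (correlations 0.138, 0.153, 0.295 and 0.175), which was taken as pairing, as each exceeded 0.1. Of the unlike numbers, mutant 2 and control 1 also exceeded it, at 0.111. The fit blocked on the number is quoted where a call differs. Data were simulated for the 19936 genes with independent normal spread and 200 genes changed. Of these changes, 84% of those of 0.5 and 98% of those of 1 on the log2 scale were called, with 6 false among 188 calls. Smaller changes were not simulated, while the median log2 difference of the members was 0.13. The percentages therefore do not give the recovery of differences of that size. Alternatives were quantile normalization, median centring, the upper 60% of probe sets by mean, trended robust variances, array weights, blocking on the replicate number, averaging over probe sets of a gene, a stricter threshold or fold, and omission of arrays.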

Additional observations from a re-analysis of the deposited data

Results flagged for a closer look

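In 4 of 102 groups of 4 arrays (each member in each label), 1 array lay far from the other 3, past Dixon's critical value for the gap over the range; chance gives about 5%. Atp6v0d1 read 10.66 on mutant array 4 and 10.56 to 10.58 on the other arrays labelled mutant. Atp6v1g3 read 10.14 on mutant array 4 and at most 10.02 on the others. Slc26a9 read 6.34 on mutant array 4 and 6.48 to 6.50 on the others. Slc9a5 read 6.80 on mutant array 2 and 6.65 to 6.66 on the others. None of these 4 genes was called.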

How the results depend on the processing

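Of the 11 called members, 5 (Slc26a1, Slc9a3r2, Slc26a7, Atp6v1c2 and Slc9a2) were called in each of the 17 alternatives that kept the threshold, and 40 of the 51 members kept the sign of their difference in each in which they were tested; 4 of these 40 were not tested in the upper 60% of probe sets. The replicate block gave 11 members higher and 2 lower: it added Slc9a3, Slc9a4 and Slc9a8, lost Slc26a2, and changed no other member's call. The number that fell was 1 after quantile normalization, which gave 12 higher. At an adjusted p under 0.01, 4 members rose and 1 fell, while 148 of all genes rose and 454 fell. At 1.5-fold and an adjusted p under 0.05, 1 member rose and 0 fell, while 83 of all genes rose and 247 fell. Leaving out 1 array gave 5 to 8 members higher and 1 to 2 lower, and over all genes 263 to 487 higher and 619 to 908 lower. Without mutant arrays 1 and 2 together 5 members rose and 1 fell, and 316 of all genes rose. The share of calls that were higher was 35.9% over all genes and 44.3% after quantile normalization. The Slc26 median was 0.28 in the upper 60% of probe sets, which keeps fewer of its genes, and 0.08 to 0.17 when 1 array was left out. The Slc4 median was 0.01 and the Slc9 median 0.24 in the upper 60%, and the Slc9 and V1 medians were 0.26 and 0.17 without mutant arrays 1 and 2 together. No family median changed sign in an alternative run for it. The cause of the other changes was not tested. The median over all genes was 0.00 to 0.04 across these alternatives. The paralogue differences, added after the data were seen, kept their sign under quantile normalization, averaged probe sets and omission of arrays. The replicate block cannot change their means, as every number has an array in each label. A table of log2 values holds no background reading, so no gene was called absent.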
